A study of Mus musculus with 4 samples.

Results

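The 9 genes described here act on the canonical Wnt pathway at the cell surface or report its activity: the secreted antagonists *Dkk1*, *Sfrp1*, *Sfrp5*, *Frzb* and *Notum*, the R-spondins *Rspo1* and *Rspo3*, and the response genes *Axin2* and *Lef1*. They were chosen by name from the count tables of a single-cell study of the mouse gastrula, and all 9 were listed in each of the tables, among 16639 genes at MS-LS, 16341 at OB-EB and 18640 at EHF. The embryos carried TnEGP-CreERT2/+ and R26Rtdtomato/R26Rtdtomato, so that tamoxifen, given by oral gavage, turned on tdTomato in cells that made Cre from the *T* locus, which is active in the primitive streak. Those of the MS-LS stage were dissected at E6+21h after tamoxifen at E6+5h, those of the OB-EB stage at E7+3h after tamoxifen at E6+21h, and those of the EHF stage at E7+14h after tamoxifen at E7+7h. Every embryo therefore had the same alleles and had received tamoxifen, no library came from untreated or wild-type embryos, and the labels give embryo as the tissue. The embryos of a stage were pooled into 1 library, so stage, time of tamoxifen and library cannot be told apart, no test between stages was possible, and the intervals given here (95%, exact) cover counting error only.

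Wnt ligands bind Frizzled receptors and the co-receptors Lrp5 and Lrp6 and thereby stabilise β-catenin, which enters the nucleus and activates targets together with TCF and LEF factors. DKK proteins bind the co-receptors, the SFRP family (to which *Frzb* belongs) binds the ligands, and the enzyme made from *Notum* removes the lipid that ligands need, so that all of them lower the signal, whereas R-spondins raise it by keeping the ubiquitin ligases ZNRF3 and RNF43 from removing the receptors. In the gastrula the pathway is known to be active in the primitive streak and in posterior tissue, and its antagonists are known from the anterior endoderm and the anterior mesoderm.

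The libraries held 3635 (MS-LS), 3994 (OB-EB) and 3494 (EHF) cells with a median of 4251, 2620.5 and 5584 unique molecular identifiers (UMIs) per cell, each UMI being 1 captured transcript. A second EHF table had the same count in all 65128160 places and was not counted again. Libraries had 12 to 18 cell barcodes in common pairwise. The level of a gene is its UMIs over the summed UMIs of the same cells, scaled to 1000000 (CPM), and levels are compared within a gene. Cells were clustered without the 9 genes and without the other genes of the Wnt pathway lists used below, except any that was also a naming marker. Clusters were named from fixed markers, with the suffix "-like". Those that did not meet the rule keep a number and are described by their 3 leading genes. The names covered 2493 of the 3635 MS-LS cells, 1996 of the 3994 OB-EB cells and 2205 of the 3494 EHF cells. The embryo's defining populations were found by their markers: epiblast-like and primitive streak-like cells at MS-LS, definitive endoderm-like cells at every stage and first heart field (FHF) cardiomyocyte-like cells at EHF. Extra-embryonic (ExE) ectoderm-like cells, with a median of 4837, 3035 and 6923 UMIs, served as the background, and all 9 genes lay at or below 12.8 CPM there at each stage. This background was not flat. From MS-LS to EHF *Frzb* was at 2.61, 12.8 and 2.82 CPM there and *Lef1* at 6.52, 11.8 and 2.82, from 8 to 20 UMIs each. The rise of *Frzb* to OB-EB and the falls of both genes to EHF were beyond counting error.

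A short stretch upstream of *Dkk1* is shown because it was the sole window among these genes with a pair of sequences of the kind bound by TCF and LEF factors. In RefSeq (GRCm38.p6) 6 of the 9 genes had a promoter window, 9 windows in all, and the 250 bases before the start were searched on both strands for CTTTGAA or for CTTTGAT, for the like sequence CTTTGTA and for the fourth of the set, CTTTGTT. Any of these occurred in 14.8% of all 32851 windows and at least 2 matches in 1.43%. *Dkk1* held CTTTGAA from 117 to 111 and then CTTTGTT from 98 to 92 bases before its start, in capitals below, at chr19:30549588-30549613 on the minus strand, which lies within an exon of a longer transcript in the GENCODE annotation. 1 of the 4 *Lef1* windows held CTTTGTA on the opposite strand, from 147 to 141 bases before that start. The windows of *Frzb*, *Rspo1*, *Sfrp5* and *Axin2* held none, and the upstream bases of *Axin2* (chr11:108920099-108920348, plus strand) are given for comparison as those of a response gene. A match of letters is a description and not a binding site.
Dkk1: CTTTGAAatcccatcccggCTTTGTT
Axin2: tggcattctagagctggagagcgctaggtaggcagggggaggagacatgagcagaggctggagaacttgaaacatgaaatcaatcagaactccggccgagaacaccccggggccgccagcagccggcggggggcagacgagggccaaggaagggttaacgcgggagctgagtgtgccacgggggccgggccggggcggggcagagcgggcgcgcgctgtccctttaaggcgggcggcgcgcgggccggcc

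To ask how the levels changed over the stages, UMIs were summed over all cells of a library. Such a sum cannot tell fewer cells of a type from less RNA per cell. Between MS-LS and OB-EB, *Frzb* and *Lef1* rose and *Dkk1* fell, and between OB-EB and EHF *Notum*, *Rspo1* and *Rspo3* rose, where rose and fell here mean a change of at least 2-fold in CPM. *Frzb* was below 2-fold without the clusters named ExE ectoderm-like, ectoplacental-like or visceral endoderm-like (log2 ratio 0.77). Extra-embryonic mesoderm-like cells were kept in that alternative. *Rspo3* was below 2-fold with median-of-ratios scaling (0.86). Of the 6 members with at least 100 UMIs over MS-LS and OB-EB, 2 were at least 2-fold higher at OB-EB and 1 was lower, against 4.15% and 3.26% of the 9705 genes counted. Of the 8 members with that many UMIs over OB-EB and EHF, 3 were higher at EHF and 0 lower, against 15.0% and 5.54% of 10489 genes. *Notum* (11 and 111 UMIs) and *Rspo1* (18 and 106) passed that limit only through EHF, so their calls add no weight to this count. Both comparisons use the OB-EB library. The median log2 ratio of all genes was −0.09 between MS-LS and OB-EB and 0.37 between OB-EB and EHF, so that a ratio near 0.37 in the latter is that of a typical gene.

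**Figure D1:**
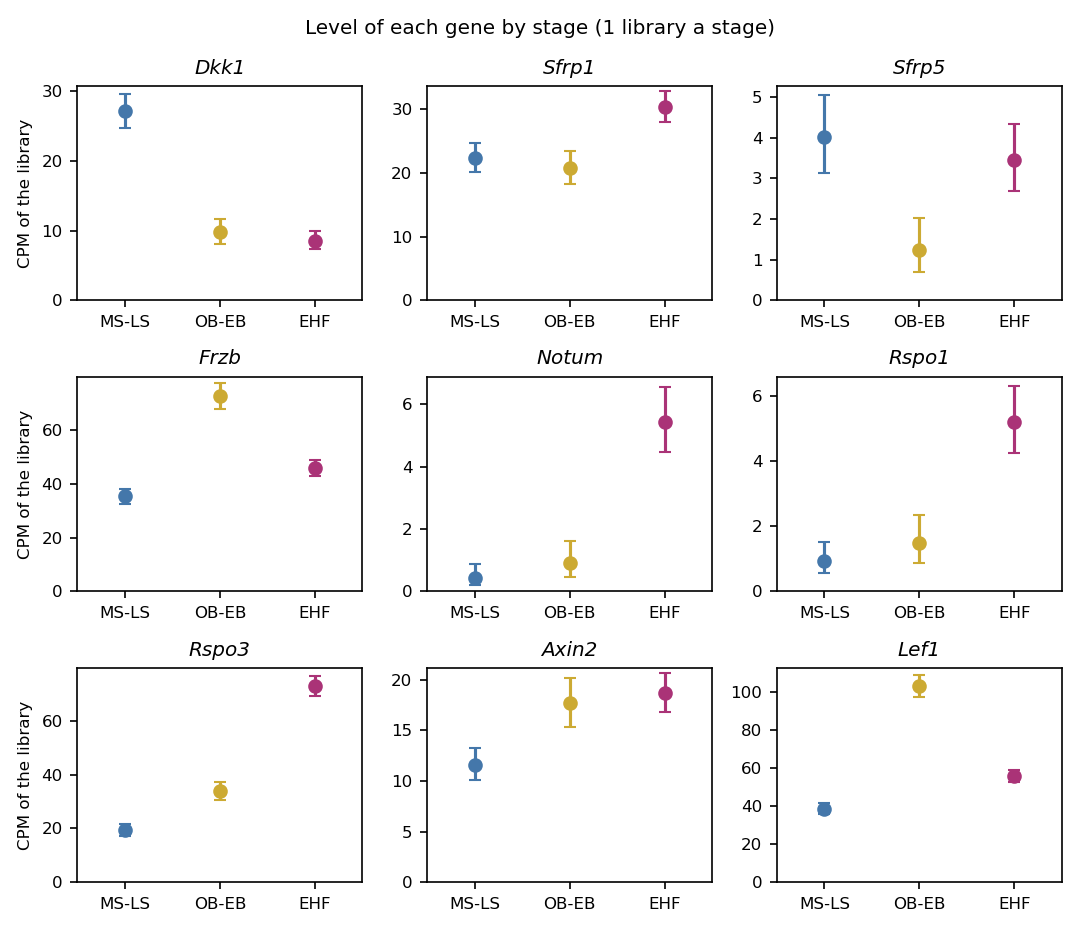
Level of each of the 9 genes in CPM (vertical axis, starting at 0, own scale for each gene) at MS-LS, OB-EB and EHF (horizontal axis), 1 library a stage; bars are exact 95% Poisson intervals. *Dkk1* is highest at MS-LS (27.1), *Frzb* and *Lef1* at OB-EB (72.7 and 103), and *Notum*, *Rspo1* and *Rspo3* at EHF (5.45, 5.20 and 72.7).

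*Dkk1*, which blocks the Lrp co-receptors (GRCm38 chromosome 19, 30545863 to 30549665), stood at 27.1 CPM (24.8 to 29.6) at MS-LS, at 9.77 (8.09 to 11.7) at OB-EB and at 8.59 (7.36 to 9.96) at EHF. The MS-LS library was the high one, with a log2 ratio of OB-EB over MS-LS of −1.47 (−1.77 to −1.18), whereas the 2 later libraries overlapped, with a ratio of −0.19 (−0.53 to 0.16). Without the ExE ectoderm-like, ectoplacental-like and visceral endoderm-like clusters the latter ratio was 0.48, so its direction depended on them. At MS-LS the gene was highest in cluster 5 (256 cells led by *Spink1*, *Cd59a* and *Amot*), at 222 CPM (194 to 253), then at 131 (107 to 158) in definitive endoderm-like cells and at 28.5 (22.2 to 36.2) in visceral endoderm-like cells, each step beyond counting error. Cluster 5 stayed unnamed because markers of definitive and of visceral endoderm scored alike in it. These 3 populations made up 22.9% of the cells and held 81.9% of the *Dkk1* UMIs (399 of 487). In the other MS-LS cells outside cluster 5, *Dkk1* was at 15.5 CPM.

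The endoderm kept its place for *Dkk1* at OB-EB, where definitive endoderm-like cells stood at 59.2 CPM (40.5 to 83.5) and visceral endoderm-like cells at 35.8 (25.9 to 48.2), followed by nascent mesoderm-like cells at 9.75 (5.57 to 15.8). Together definitive and visceral endoderm-like cells held 63.0% of its UMIs (53.7 to 71.7) in 12.4% of the cells at OB-EB. At EHF they held 26.3% (19.9 to 33.5) in 11.7% of the cells. The 81.9% given for MS-LS also counts cluster 5, so it is not over the same populations. At EHF the order began with definitive endoderm-like cells at 62.0 (40.8 to 90.2), presomitic mesoderm-like cells at 40.8 (25.8 to 61.2), FHF cardiomyocyte-like cells at 35.7 (22.9 to 53.2), cluster 26 (64 cells led by *Lama1*, *Srgn* and *Lamc1*) at 28.2 (9.16 to 65.8) and anterior paraxial mesoderm-like cells at 22.8 (12.8 to 37.7), and none of these neighbours differed beyond counting error. Mesoderm and endoderm thus both carried the gene at this stage. After each cell was thinned to 2000 UMIs, 17.8% of cluster 5 cells (13.1 to 23.4) had a *Dkk1* UMI at MS-LS, 23.4% before thinning, against 0 of 519 thinned ExE ectoderm-like cells, which allows a share of cells with a UMI of up to 0.578%.

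*Sfrp1* encodes a secreted Frizzled-like protein that binds Wnt ligands (chromosome 8, 23411502 to 23449632). It stood at 22.3 CPM (20.2 to 24.6), 20.7 (18.2 to 23.4) and 30.4 (28.0 to 32.9) at MS-LS, OB-EB and EHF, so the earlier stages overlapped (log2 ratio −0.11, −0.34 to 0.12) and EHF was above OB-EB by 0.55 (0.34 to 0.77), close to the shift of all genes. The sites of highest level changed more than the total did. At MS-LS, cluster 5 stood at 159 CPM (135 to 186) and definitive endoderm-like cells at 112 (90.2 to 138), and these 11.3% of the cells held 62.8% of the *Sfrp1* UMIs. At OB-EB definitive endoderm-like cells were highest at 153 (122 to 190), 1.92 above the next population on the log2 scale. At EHF they had 71.2 CPM (48.4 to 101), while anterior paraxial mesoderm-like cells reached 212 (178 to 250) and cluster 1 (201 cells led by *Otx2*, *Hesx1* and *Six3*, genes of the rostral neural plate) reached 119 (102 to 137). FHF cardiomyocyte-like cells at 86.3 (65.6 to 112) and paraxial mesoderm-like cells at 80.6 (60.7 to 105) followed and did not differ beyond counting error.

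*Sfrp5* belongs to the same family and is a known marker of the first heart field (chromosome 19, 42197971 to 42202252). In these libraries it was sparse, with 72, 15 and 70 UMIs over the libraries, or 4.01 (3.14 to 5.05), 1.23 (0.689 to 2.03) and 3.44 CPM (2.68 to 4.34) from MS-LS to EHF. OB-EB was thus the low stage. At MS-LS 56 of the 72 UMIs fell in cluster 5, which stood at 55.3 CPM (41.8 to 71.9), 3.49 above the next population on the log2 scale. At OB-EB no population held more than 7 UMIs. At EHF the gene had moved to the mesoderm: FHF cardiomyocyte-like cells stood at 64.0 (46.3 to 86.2), paraxial mesoderm-like cells at 24.9 (14.5 to 39.9), and both together held 85.7% of the UMIs in 5.98% of the cells. Definitive endoderm-like cells of the EHF library had none. Among FHF cardiomyocyte-like cells 33.0% had a *Sfrp5* UMI, or 16.1% after thinning, against 0 of 514 ExE ectoderm-like cells, which allows a share of cells with a UMI of up to 0.584%.

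*Frzb*, the SFRP family member also called *Sfrp3* (chromosome 2, 80411970 to 80447625), stood at 35.4 CPM (32.7 to 38.3), 72.7 (67.9 to 77.6) and 45.8 (42.9 to 48.8). OB-EB was the high stage, 1.04 above MS-LS (0.89 to 1.19) and 0.67 above EHF on the log2 scale, the ratio of EHF over OB-EB being −0.67 (−0.80 to −0.53). Its highest population was one of streak or mesoderm cells at each stage, and not of endoderm as for *Dkk1*. At MS-LS cluster 12 (161 cells led by *Lefty2*, *Kdr* and *Rasgrp3*) had 108 CPM (91.1 to 127), primitive streak-like cells 96.3 (81.8 to 113) and nascent mesoderm-like cells 83.3 (69.1 to 99.5), without a difference beyond counting error between neighbours. At OB-EB nascent mesoderm-like cells had 208 (187 to 232), cluster 2 (372 cells led by *Myl7*, *Ifitm1* and *Mesp1*) had 157 (131 to 186) and definitive endoderm-like cells had 122 (94.4 to 155). At EHF the level was highest in cluster 7 (145 cells led by *Aldh1a2*, *Tbx6* and *Pcdh19*), at 268 (232 to 308). Presomitic mesoderm-like cells at 206 (170 to 247) and caudal epiblast-like cells at 160 (134 to 190) came next and did not differ from each other beyond counting error, while endothelium-like cells had 7.3 and blood progenitor-like cells 1.4.

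*Notum*, the Wnt-inactivating carboxylesterase (chromosome 11, 120653788 to 120661175), had 8 UMIs at MS-LS, 11 at OB-EB and 111 at EHF. These correspond to 0.445 CPM (0.192 to 0.877), 0.903 (0.451 to 1.62) and 5.45 (4.48 to 6.56), and EHF was 2.59 above OB-EB (1.70 to 3.64) on the log2 scale. At the earlier stages no population held more than 3 UMIs. At EHF cluster 13 (115 cells led by *Nkx1-2*, *Cdx1* and *Hes3*) stood at 27.3 (15.6 to 44.3), caudal epiblast-like cells at 26.5 (16.6 to 40.1), cluster 6 (149 cells led by *Hes3*, *Nkx1-2* and *Gbx2*) at 20.3 (12.8 to 30.4) and presomitic mesoderm-like cells at 14.2 (6.12 to 27.9). These 4 populations, all of the posterior of the embryo by their leading genes, did not differ beyond counting error from one to the next, and they held 62.2% of the *Notum* UMIs (52.5 to 71.2) in 14.4% of the cells. Outside them, extra-embryonic mesoderm-like cells had 13 *Notum* UMIs, or 8.44 CPM (4.49 to 14.4). Anterior paraxial mesoderm-like, FHF cardiomyocyte-like and endothelium-like cells had 0 *Notum* UMIs.

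**Figure D2:**
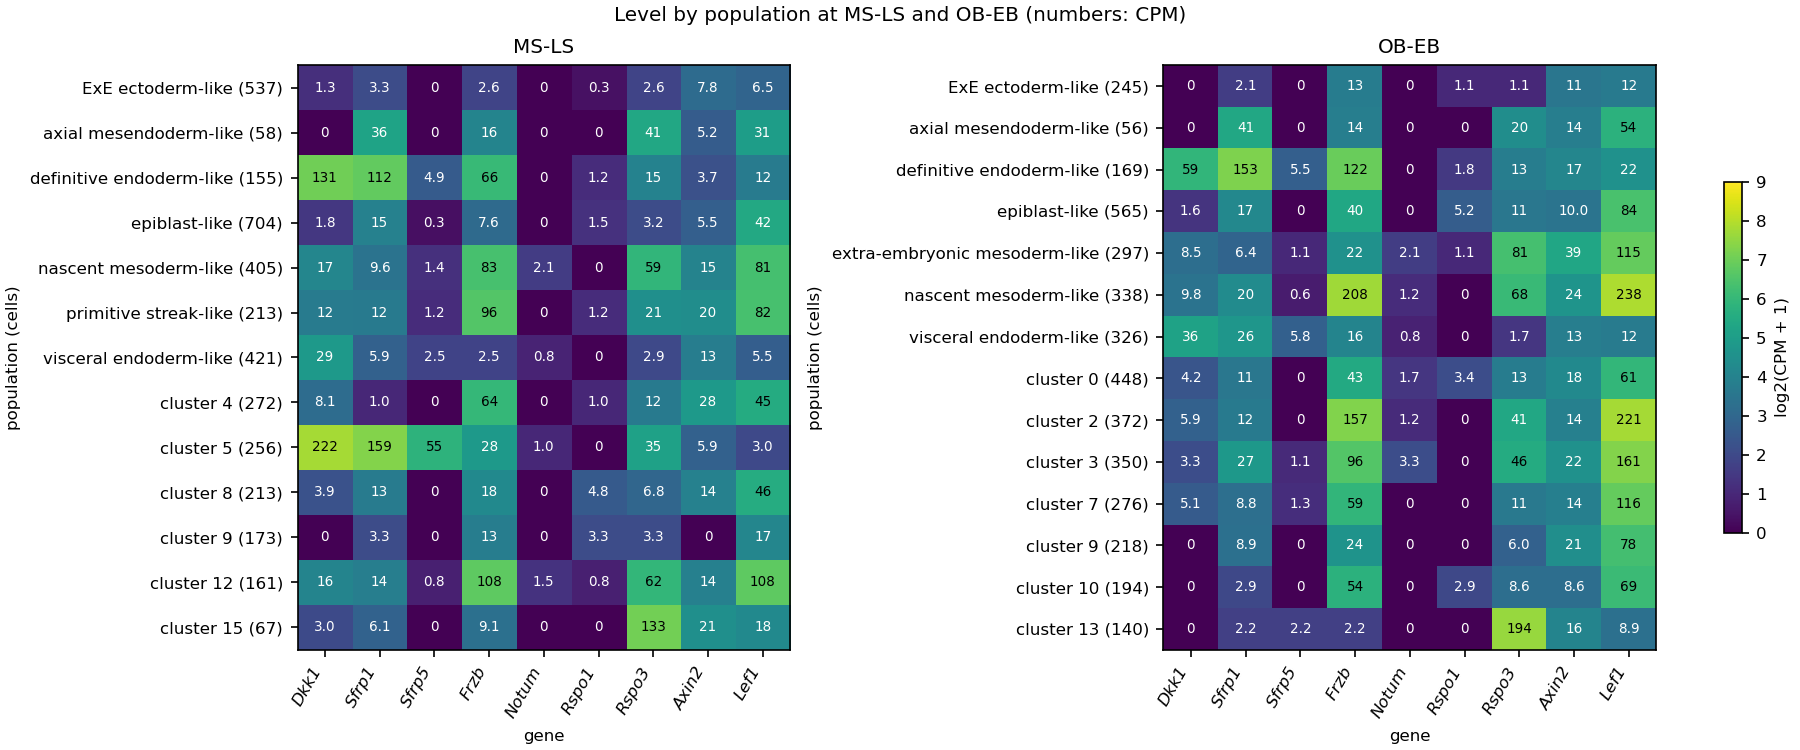
CPM of each gene (columns) in each population of at least 50 cells (rows, number of cells in parentheses) at MS-LS (left) and OB-EB (right); colour is log2(CPM + 1) and the printed numbers are CPM. At MS-LS *Dkk1*, *Sfrp1* and *Sfrp5* are highest in cluster 5 (222, 159 and 55), while *Frzb* and *Lef1* are highest in cluster 12 (108 each).

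*Rspo1* (chromosome 4, 124986430 to 125009099), a ligand of the LGR receptors, rose with *Notum* at the last stage. It had 17, 18 and 106 UMIs, or 0.946 CPM (0.551 to 1.51), 1.48 (0.876 to 2.34) and 5.20 (4.26 to 6.29) from MS-LS to EHF, and EHF was 1.82 above OB-EB (1.09 to 2.62) on the log2 scale. At OB-EB epiblast-like cells held 10 of its 18 UMIs. At EHF anterior paraxial mesoderm-like cells had 38.1 CPM (24.6 to 56.2), 0.98 above the next population of at least 50 cells on the log2 scale. Caudal epiblast-like cells at 19.2 (11.0 to 31.3), cluster 10 (128 cells led by *Crabp2*, *Pou5f1* and *Stmn2*) at 18.9 (6.95 to 41.2) and cluster 1 at 12.5 (7.50 to 19.5) followed and did not differ beyond counting error. The populations with most *Rspo3*, cluster 7 and endothelium-like cells, had 4.1 and 0 CPM of *Rspo1*.

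*Rspo3*, the R-spondin known for its roles in blood vessels and in the presomitic mesoderm (chromosome 10, 29452416 to 29535867), was higher at each later stage, at 19.4 CPM (17.4 to 21.5), 33.9 (30.7 to 37.3) and 72.7 (69.1 to 76.5). The log2 ratios were 0.81 (0.60 to 1.02) and 1.10 (0.94 to 1.26), both intervals above the median of all genes. At both earlier stages it was highest in a cluster led by *Lmo2*, *Gadd45g* and *Fli1*, genes of blood and vessel precursors: cluster 15 at MS-LS (67 cells) had 133 CPM (96.8 to 179) and cluster 13 at OB-EB (140 cells) had 194 (155 to 239). Each stood above the next population beyond counting error, by 1.11 (0.55 to 1.66) and 1.26 (0.80 to 1.72) on the log2 scale. At EHF cluster 7 was highest, at 476 (427 to 528), above endothelium-like cells at 353 (305 to 407), presomitic mesoderm-like cells at 314 (269 to 364) and nascent mesoderm-like cells at 272 (240 to 308). These 4 populations held 65.9% of the UMIs (63.4 to 68.3) in 13.9% of the cells. Anterior paraxial mesoderm-like cells had 3.0 CPM and erythroid-like cells 11.5. After thinning, 61.4% of cluster 7 cells and 46.5% of endothelium-like cells had a *Rspo3* UMI (84.8% and 75.6% before), against 0.411% of ExE ectoderm-like cells.

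*Axin2* is a feedback inhibitor in the β-catenin destruction complex and is widely used as a readout of the pathway (chromosome 11, 108920349 to 108950783). It was higher at both later stages than at MS-LS, by less than 2-fold. It stood at 11.6 CPM (10.1 to 13.3), 17.6 (15.4 to 20.2) and 18.6 (16.8 to 20.6), with log2 ratios of 0.61 (0.33 to 0.89) and 0.08 (−0.17 to 0.33). The ratio of EHF over MS-LS was 0.69 (0.44 to 0.94), against a median of 0.26 for all genes. Its spread among populations was the smallest of the 9 genes at EHF, by the ratio of the highest population over the other cells, which was 1.55 (1.05 to 2.01) on the log2 scale. At MS-LS cluster 4 (272 cells led by *Fgf8*, *Fst* and *Nefl*) had 28.2 (18.8 to 40.8) and primitive streak-like cells had 20.2 (13.9 to 28.4). At OB-EB extra-embryonic mesoderm-like cells were highest at 39.5 (27.8 to 54.4), beyond counting error of nascent mesoderm-like cells at 24.4 (17.4 to 33.2). At EHF caudal epiblast-like cells had 50.5 (36.4 to 68.3), cluster 7 had 47.3 (32.9 to 65.8), nascent mesoderm-like cells had 38.6 (27.0 to 53.4) and cluster 6 had 36.1 (25.9 to 49.0), none different from its neighbour beyond counting error. Erythroid-like cells had 0 UMIs, which allows up to 5.75 CPM.

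*Lef1*, a transcription factor that acts with β-catenin and is itself a target of the pathway (chromosome 3, 131110471 to 131224356), stood at 38.6 CPM (35.8 to 41.6), 103 (97.6 to 109) and 56.0 (52.8 to 59.3). As for *Frzb*, OB-EB was the high stage, 1.42 above MS-LS (1.28 to 1.55) on the log2 scale, and EHF over OB-EB was −0.88 (−1.0 to −0.77). The highest population was the one highest for *Frzb* at each stage, though at EHF other clusterings (the other resolution, and pathway genes allowed in) put them highest in different populations. At MS-LS cluster 12 had 108 (91.1 to 127), primitive streak-like cells 82.2 (68.9 to 97.3) and nascent mesoderm-like cells 80.5 (66.6 to 96.5), at OB-EB nascent mesoderm-like cells had 238 (215 to 263) and cluster 2 had 221 (191 to 255), and at EHF cluster 7 had 265 (229 to 305). At EHF nascent mesoderm-like cells at 189 (162 to 219), paraxial mesoderm-like cells at 177 (147 to 212) and presomitic mesoderm-like cells at 165 (133 to 202) followed without a difference beyond counting error. Cluster 5 of MS-LS, highest for *Dkk1* and *Sfrp1*, had 3.0 CPM of *Lef1*.

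**Figure D3:**
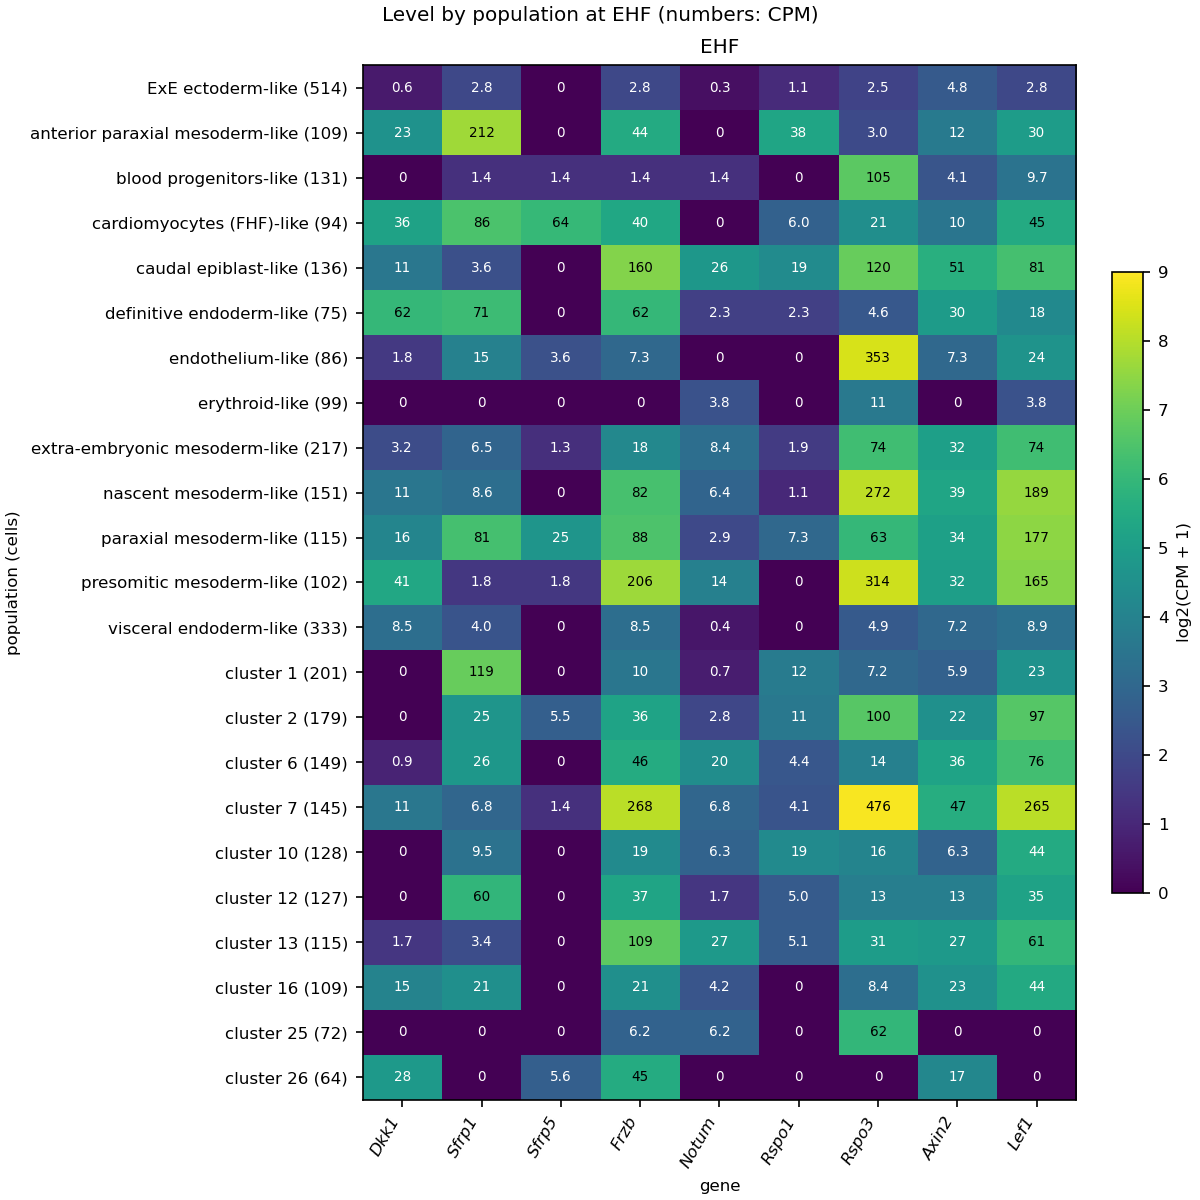
CPM of each gene (columns) in the 23 EHF populations of at least 50 cells (rows, number of cells in parentheses); colour is log2(CPM + 1) and the printed numbers are CPM. Cluster 7 has the highest *Frzb*, *Rspo3* and *Lef1* (268, 476 and 265), anterior paraxial mesoderm-like cells the highest *Sfrp1* and *Rspo1* (212 and 38), and FHF cardiomyocyte-like cells the highest *Sfrp5* (64).

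To ask whether the stage changes were also seen within a population, the named populations present at more than 1 stage were compared. In epiblast-like cells *Frzb* went from 7.59 CPM at MS-LS to 40.3 at OB-EB, a log2 ratio of 2.41 (1.75 to 3.11), and *Lef1* from 41.8 to 83.8, a ratio of 1.0 (0.67 to 1.34). Both members with enough UMIs were therefore at least 2-fold higher, against 7.27% of the genes counted in this population, of which 2.68% were lower. At the other clustering resolution *Lef1* was just below 2-fold, at 0.95, and with Leiden clusters *Frzb* was at 1.63. In nascent mesoderm-like cells *Frzb* went from 83.3 to 208 CPM, by 1.32 (1.02 to 1.64), and *Lef1* from 80.5 to 238, by 1.57 (1.26 to 1.88), while *Rspo3* was at 59.2 and 67.7, a ratio of 0.19 (−0.23 to 0.62). There 2 of 3 members were at least 2-fold higher, against 13.7% of genes, and none was lower, against 3.38%. The nascent mesoderm-like cells of OB-EB had *T* and *Mixl1*, markers of the streak, among their leading genes and those of MS-LS did not, and the *Frzb* ratio was −0.043 at the other clustering resolution and 0.042 with Leiden clusters. *Lef1* was at 0.94 and 1.03 there, so that none of the members passed 2-fold at the other resolution.

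Between OB-EB and EHF, *Rspo3* rose in nascent mesoderm-like cells from 67.7 to 272 CPM, by 2.01 on the log2 scale (1.68 to 2.34), while *Frzb* went from 208 to 82.5, a ratio of −1.34 (−1.71 to −0.98), and *Lef1* from 238 to 189, a ratio of −0.34 (−0.60 to −0.08). Thus 1 of 3 members was higher and 1 lower, against 7.50% and 8.41% of genes. The EHF cells of this name were led by *Mesp1*, *Cdx4* and *Pcdh19* and so had caudal genes that the OB-EB cells lacked among theirs. In extra-embryonic mesoderm-like cells *Rspo3* was at 81.1 CPM at OB-EB and 74.0 at EHF, a ratio of −0.13 (−0.56 to 0.31). Its rise in the whole library was therefore not seen in each population.

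In definitive endoderm-like cells *Dkk1* fell from 131 CPM at MS-LS to 59.2 at OB-EB, by 1.14 on the log2 scale (ratio −1.76 to −0.56), and it was the 1 member of 3 that was at least 2-fold lower, against 4.92% of genes, while none was 2-fold higher, against 5.14%. At the other resolution the *Dkk1* ratio was −2.06. *Frzb* went up from 66.5 to 122 CPM there, by 0.88 (0.33 to 1.42). *Sfrp1* went from 112 to 153 and then to 71.2 CPM at EHF, with log2 ratios of 0.45 (0.01 to 0.90) and −1.11 (−1.75 to −0.50), the latter against 9.51% of genes that were at least 2-fold lower and 9.94% that were higher. The former ratio was −0.070 at the other resolution, and the latter was −0.92 among cells with at least 2000 UMIs, below 2-fold. The MS-LS cells of this name were led by *Lefty1*, *Sox17* and *Gsc*. In visceral endoderm-like cells *Dkk1* was at 28.5 CPM at MS-LS and 35.8 at OB-EB, a ratio of 0.33 (−0.26 to 0.90), which was −0.14 at the other resolution and −1.20 with Leiden clusters. At EHF *Dkk1* was at 8.49 CPM in these cells, a ratio over OB-EB of −2.07 (−2.94 to −1.26). That ratio rests on 43 and 19 UMIs, under the limit of 100 for a call.

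**Figure D4:**
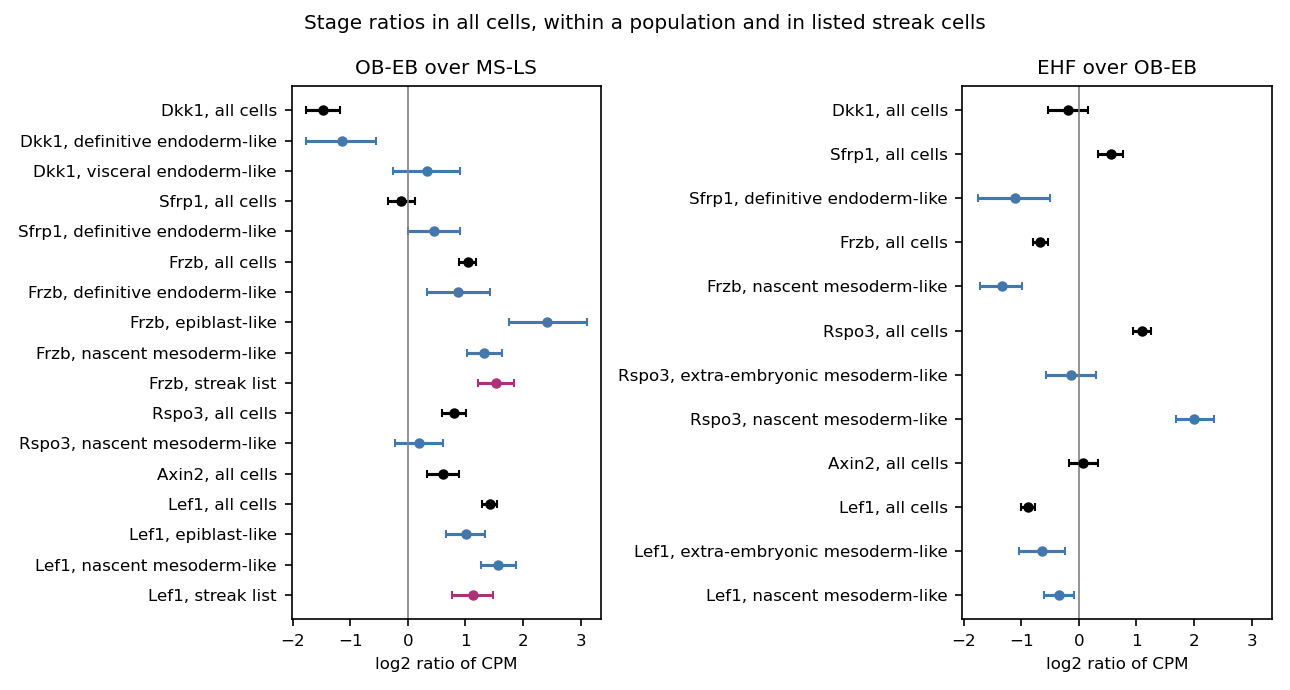
Log2 ratio of CPM (horizontal axis) of OB-EB over MS-LS (left) and of EHF over OB-EB (right) for *Dkk1*, *Sfrp1*, *Frzb*, *Rspo3*, *Axin2* and *Lef1*, in all cells (black), within a named population where at least 100 UMIs were counted (blue) and in the streak cells listed by the study (purple); bars are exact 95% intervals of counting error. *Frzb* and *Lef1* lie above 0 on the left in each row, and *Rspo3* in nascent mesoderm-like cells is the highest ratio on the right (2.01).

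The study lists the barcodes of its primitive streak cells, which allows a comparison that does not rest on the clusters made here. The list holds 318 primitive streak and 36 anterior primitive streak cells at MS-LS and 252 primitive streak cells at OB-EB, all found in the tables. In these cells *Frzb* went from 81.9 CPM (172 UMIs) at MS-LS to 237 (175 UMIs) at OB-EB, by 1.53 on the log2 scale (1.22 to 1.85). *Lef1* went from 72.4 to 158 CPM, by 1.13 (0.77 to 1.49), *Rspo3* from 18.6 to 36.6, by 0.98 (0.21 to 1.72), and *Axin2* from 21.9 to 23.0, by 0.07 (−0.82 to 0.90). Of all genes counted in this comparison, 3.47% were at least 2-fold higher and 4.72% lower. The listed streak cells at OB-EB thus had higher CPM of *Frzb* and *Lef1*, both beyond 2-fold, and their *Axin2* did not differ beyond counting error. The study counts *Frzb* among streak genes present at both stages, and it was found at both here. The lists fell in unlike populations. Of the 318 MS-LS cells, 179 were primitive streak-like and 108 lay in MS-LS cluster 4. Of the 252 OB-EB cells, 71 lay in OB-EB cluster 2, 68 in cluster 0, 48 in cluster 7 and 47 in nascent mesoderm-like cells. Cluster 2 and nascent mesoderm-like cells were among the highest for *Frzb* and *Lef1* at OB-EB. How far this difference in cells entered the ratios was not tested. *Dkk1*, *Sfrp1*, *Sfrp5*, *Notum* and *Rspo1* had at most 5 UMIs each in the OB-EB streak cells.

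Within the MS-LS streak the anterior cells had 2 UMIs of *Lef1* (12.1 CPM) against 152 in the other streak cells (72.4 CPM), a log2 ratio of −2.58 (−5.64 to −0.70). Of the genes counted there, 5.05% were at least 2-fold lower and 1.34% higher. *Sfrp1* was at 48.5 CPM (8 UMIs) in the anterior and 12.9 (27 UMIs) in the other streak cells, a ratio of 1.91 (0.57 to 3.09), and *Frzb* was at 84.8 and 81.9, a ratio of 0.05 (−0.85 to 0.84). Of the 36 anterior cells 25 fell in the definitive endoderm-like population, which was also high in *Sfrp1*. These ratios rest on few UMIs in 36 cells.

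To see which members shared a pattern, levels were correlated over the 50 populations of at least 50 cells in the 3 libraries, on the log2(CPM + 10) scale. The points share libraries and depth, so the values are descriptions. The highest correlation between members was that of *Frzb* and *Lef1* (Pearson's r = 0.73), followed by *Axin2* and *Lef1* (0.66), *Frzb* and *Axin2* (0.63) and *Dkk1* and *Sfrp5* (0.59). *Dkk1* and *Sfrp1* had r = 0.52. The R-spondins did not go together (r = −0.08), nor did *Sfrp1* and *Rspo3* (−0.17) or *Sfrp1* and *Notum* (−0.21). The antagonists thus differed, *Frzb* being nearer the response genes and *Dkk1*, *Sfrp1* and *Sfrp5* nearer one another. *Notum* had r = 0.49 with *Axin2*, 0.37 with *Frzb* and 0.31 with *Lef1*, and −0.05, −0.21 and −0.13 with *Dkk1*, *Sfrp1* and *Sfrp5*.

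**Figure D5:**
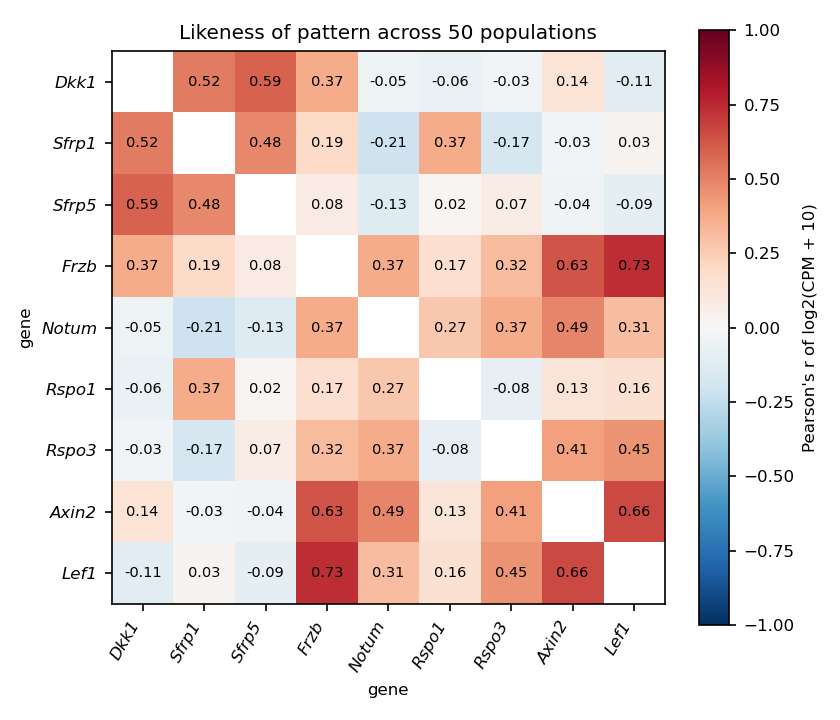
Pearson's r of log2(CPM + 10) between the 9 genes (rows and columns) across 50 populations of the 3 libraries; red is positive and blue negative. *Frzb* and *Lef1* have the highest value (0.73) and *Sfrp1* and *Notum* the lowest (−0.21).

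The genes whose pattern was most like each member were ranked in the same way among 8641 genes with at least 300 UMIs over the libraries, or 8642 for a member below that number. For *Dkk1* they were *Kitl* (0.74), *Mpp5* (0.73) and *Gpc4* (0.69), and for *Sfrp5* *Kitl* (0.64), *Dkk1* (0.59) and *Mef2c* (0.54). For *Sfrp1* they were *Shisa2* (0.90), *Tspan7* (0.77) and *Cer1* (0.72). Of these, *Shisa2* is itself a known inhibitor of Wnt signalling, and the study names *Cer1* as a Nodal antagonist. *Cer1* was not among the 10 most alike at a pseudocount of 1 CPM. For *Frzb* they were *Cachd1* (0.86), *Fst* (0.76) and *Sp5* (0.76), and for *Lef1* *Gas1* (0.86), *Dock11* (0.84) and *Pcolce2* (0.84). *Notum* was most like *Nkx1-2* (0.89), *Cdx1* (0.84) and *Grsf1* (0.83), the former pair being genes of the caudal epiblast. *Rspo3* was most like *Hoxb2* (0.79), *Hoxb3os* (0.76) and *Fgf15* (0.73), and *Rspo1*, with lower values, like *Tpgs2* (0.66), *Crabp2* (0.65) and *Gstm5* (0.64). *Axin2* was most like *Ptk7* (0.72), *Gna14* (0.72) and *Nkd1* (0.69), of which *Ptk7* is a Wnt co-receptor and *Nkd1* another feedback inhibitor of the pathway, and none of them was among the first 3 at a pseudocount of 1 CPM.

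Whether the other members were found in the same cells as *Lef1* was asked after thinning to 2000 UMIs, over all cells of a library. *Lef1* had a UMI in more of the cells with *Frzb* than of the others at each stage, in 13.3% against 6.81% at MS-LS, 28.1% against 16.7% at OB-EB and 20.1% against 9.86% at EHF, with intervals that did not overlap. For cells with *Rspo3* the shares were 10.9% against 7.09%, 25.6% against 17.5% and 24.7% against 8.82%, and the intervals overlapped at MS-LS and not at the later stages. For cells with *Axin2* they were 6.67% against 7.24%, 21.7% against 17.9% and 20.5% against 10.3%, apart at EHF and overlapping earlier. For cells with *Dkk1*, of which there were 116, 43 and 48, they were 6.03% against 7.27%, 11.6% against 18.1% and 16.7% against 10.6%, and the intervals overlapped at every stage. Within single populations, 94 pairs of a gene with *Axin2* or *Lef1* had at least 20 cells with the gene, and in 1 of them the intervals did not overlap: *Lef1* in visceral endoderm-like cells of MS-LS, in 3 of the 20 cells with *Dkk1* and 4 of the 396 without it. This pair was chosen after its values were seen. In the rest the intervals overlapped.

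Other genes of the pathway were read from 6 lists, between MS-LS and EHF, where 3 of the 9 members were at least 2-fold higher at EHF (*Notum*, *Rspo1* and *Rspo3*) and 1 was lower (*Dkk1*), against 10.9% and 4.51% of all genes. *Notum* (8 and 111 UMIs) and *Rspo1* (17 and 106) passed the limit of 100 UMIs only through EHF, so their calls add no weight. Of the genes named below, *Wnt3a*, *Wnt8a*, *Fzd10*, *Ror1* and *Bcl9l* did so too, each with under 100 UMIs at MS-LS. Of the ligands 17 of 19 were listed and 8 had at least 100 UMIs, of which 5 were higher and 1 lower: *Wnt3a* went from 0.668 to 6.63 CPM (log2 ratio 3.31, 2.46 to 4.30), *Wnt8a* from 1.28 to 8.78 (2.78), *Wnt6* from 7.07 to 25.7 (1.86), and *Wnt3*, the early ligand of the streak, fell from 11.7 to 2.01 (−2.54, −3.06 to −2.05). Their median ratio was 1.29 against 0.26 for all genes. Of the 13 receptors with as many UMIs (17 listed), 3 were higher and 2 lower, with *Fzd10* at 2.49 and *Ror1* at 1.40 above, and *Fzd8* at −1.78 and *Fzd5* at −1.38 below. Of the 4 other secreted antagonists (16 listed), *Sfrp2* was higher (1.03) and *Cer1* lower (−1.55, 52.5 to 18.0 CPM), and *Igfbp4* (0.82) and *Shisa2* (0.47) were neither. *Cer1* is in this list, though the study names it as a Nodal antagonist. Of the 8 other feedback and target genes (9 listed), *Nkd1* was higher, from 12.1 to 37.7 CPM (1.64, 1.42 to 1.86), and 7 were neither, among them *Ccnd1* (0.88), *Sp5* (0.73) and *Tcf7* (0.70). Of the 12 intracellular and nuclear genes (14 listed), *Bcl9l* was higher (1.29) and 11 were neither.

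In the list of the other R-spondins and their receptors, with 7 genes, 3 had at least 100 UMIs in each stage comparison. *Znrf3*, the ubiquitin ligase that R-spondins hold in check, stood at 8.91, 33.9 and 8.74 CPM from MS-LS to EHF, and *Lgr4*, an R-spondin receptor, stood at 12.7, 29.5 and 13.1, so that both were highest at OB-EB, as were *Lef1* and *Frzb*. *Lgr5*, a receptor of the same family, stood at 3.45, 4.84 and 2.40, and its MS-LS and OB-EB intervals overlapped. These 3 genes were at least 2-fold lower at EHF than at OB-EB, *Lgr5* only just, against 5.54% of all genes. *Rspo3* and *Rspo1* were at least 2-fold higher, against 15.0% of all genes, though *Rspo3* was at 0.86 with median-of-ratios scaling. *Rspo1* passed the limit of 100 UMIs only through EHF.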

How the data were processed

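Single-cell RNA was measured in 3 mouse libraries, MS-LS, OB-EB and EHF, each of pooled embryos and grouped by the labels. The authors used the Chromium 3′ assay, counted UMIs with Cell Ranger 3.0.2 against GRCm38 (the submitters' processing notes also name R 3.6.1 and Seurat 3), removed barcodes of low quality and deposited the counts per gene and cell without normalization. The 4 tables hold 1001 to 36920 UMIs per cell, and the 2 EHF tables were used as 1 library.

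UMIs were summed over cells and given as CPM with exact Poisson 95% intervals; ratios of sums carry the exact conditional interval, shares exact binomial (Clopper-Pearson) intervals, a sum of 0 a floor of 3 UMIs over the population, and a share of 0 a limit of 3 cells. UMIs are molecules of 1 library, so all intervals and floors cover counting error only. With 1 library a stage, no test was made. Calls are 2-fold among genes with at least 100 UMIs over both groups.

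Clusters were made in Seurat 5.3.0 under R 4.3.3 (log-normalised counts, 2000 variable genes, 50 principal components, resolution 4.5 for EHF and 2 otherwise), with the members and pathway lists held out, except any listed gene that was also a marker. A cluster was named from markers of 25 cell types when at least 3 markers were detected, the best type led by 0.2 (mean log2 ratio, pseudocount 10 CPM) and no other type had more markers among its 10 leading genes. Names are rebuilt here and need not hold the study's cells. Streak cells were taken by barcode from the study's source data. No doublets were removed: Scrublet (scanpy 1.11.5) flagged only 6, 0 and 13 barcodes, below 0.5%, and its calls were not relied on. Why so few were flagged was not tested. An alternative dropped the top 5% by doublet score (182, 200 and 175 cells). Others changed the cell filter, scaling, clustering (Leiden, leidenalg 0.10.2) and pseudocount. The remaining work was done in Python 3.11.15 with numpy 2.4.6, scipy 1.17.1 and pandas 2.3.3, and figures with matplotlib 3.10.9. Ratios were tested on simulated data.

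The genes named are the 9 members, at most 4 genes a list by the size of the MS-LS to EHF ratio, and the 3 genes most like each member; *Lgr4*, *Lgr5* and *Znrf3* are those of their list. The members and lists were chosen with earlier results of these data known. Positions are from GENCODE M21 (GRCm38) and promoter sequences from RefSeq (GRCm38.p6).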

Additional observations from a re-analysis of the deposited data

Results flagged for a closer look

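The log2 ratio of *Lef1* for EHF over MS-LS had opposite signs in 2 populations. It was 1.23 (0.88 to 1.58) in nascent mesoderm-like cells, from 117 and 176 UMIs, and −1.21 (−2.47 to −0.05) in ExE ectoderm-like cells, from 20 and 10 UMIs, so that the ratios differed by 2.44. This result was picked out because both counting intervals exclude 0 on opposite sides. ExE ectoderm-like cells served as the background, with a *Lef1* UMI in 3.35% and 1.95% of cells, and their UMIs are under the limit of 100, so no change of expression is read from them. With 1 library a stage, the difference was not tested.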

How the results depend on the processing

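No paired analysis was possible because each stage is 1 library. Depth limits *Notum*, *Rspo1* and *Sfrp5*, which had 8 to 111 UMIs a library, and each stage ratio rests on 1 library. Of 229 ratios under alternatives, 200 stayed within the interval of the value reported, 27 left it and 2 left it with a change of sign of a value whose interval excluded 0; the causes were not tested. In all, 6 of 175 stage ratios changed sign, among them *Axin2* for EHF over OB-EB with median-of-ratios scaling (−0.16) and *Dkk1* in visceral endoderm-like cells at the other resolution (−0.14). No value left its interval with a minimum of 2000 UMIs, without the highest doublet scores, without cells over the mitochondrial limit, with mitochondrial, ribosomal and globin genes left out, with pathway genes allowed in or without the naming margin. The second EHF table holds the same counts, so its 9 values, among the 200, had to stay the same. For the highest EHF population only the value was compared, and not which population it was. A further alternative left out the ExE ectoderm-like, ectoplacental-like and visceral endoderm-like clusters and kept extra-embryonic mesoderm-like cells. In it the log2 ratio of OB-EB over MS-LS was −2.13 for *Dkk1*, −0.47 for *Sfrp1*, −2.73 for *Sfrp5*, 0.77 for *Frzb* and 1.22 for *Lef1*. That of EHF over OB-EB was 0.48 for *Dkk1*, 0.91 for *Sfrp1*, 2.59 for *Sfrp5*, −0.46 for *Frzb*, 1.30 for *Rspo3*, 0.34 for *Axin2* and −0.69 for *Lef1*. With median-of-ratios scaling EHF over OB-EB was 0.31 for *Sfrp1*, −0.91 for *Frzb*, 0.86 for *Rspo3* and −1.13 for *Lef1*, and as a mean of per-cell CPM it was −0.46 for *Frzb* and 1.31 for *Rspo3*. At the other resolution, the highest EHF population over the other cells was at 2.69 for *Sfrp1* and 2.44 for *Rspo1* (both paraxial mesoderm-like) and 2.34 for *Frzb*. Within populations, OB-EB over MS-LS at the other resolution was −2.06 for *Dkk1* and −0.070 for *Sfrp1* in definitive endoderm-like cells, and −0.043 for *Frzb* and 0.94 for *Lef1* in nascent mesoderm-like cells. With Leiden clusters it was 1.63 for *Frzb* in epiblast-like cells, 0.042 for *Frzb* and 1.03 for *Lef1* in nascent mesoderm-like cells, and −1.20 for *Dkk1* in visceral endoderm-like cells. In the listed streak cells only the *Frzb* and *Lef1* ratios of OB-EB over MS-LS were varied. They moved neither with a minimum of 2000 UMIs, which kept all 318 MS-LS primitive streak cells, nor without the highest doublet scores. Of the 27 genes named as most like a member, 14 were still among the first 3 at a pseudocount of 1 CPM and 20 at 50 CPM; *Gpc4*, *Cer1*, *Mef2c* and *Nkd1* were outside the first 10 at 1 CPM, and *Fst* at 50 CPM.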
